A study of Homo sapiens with 2 samples.

Results

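The cells described are the 100 cells with most CDKN1A among 1920 kept cells of untreated SH-SY5Y (SY5Y), a human neuroblastoma line derived as a subclone of SK-N-SH. They were selected on the measured level itself, as the 100 highest values of CDKN1A unique molecular identifiers (UMIs) per 10,000 UMIs of the cell, so that their CDKN1A is given as a description and not as a result. The study split 1 untreated culture into 2 flasks, SplitA and SplitB, and let both grow. It tagged the cells of each flask with a hashtag antibody of its own and pooled them. From the pool, 1 mRNA library and 1 hashtag library were sequenced (CITE-seq). No cell was treated with any agent and the cells were not synchronized. A cell was kept when 1 hashtag had at least 3 times the counts of the other and the other stayed at or under a fixed background limit, when at least 1000 genes had a UMI, and when the 13 mitochondrial genes held under 15% of its UMIs. Of 2879 barcodes, 95 were multiplets by these limits. SplitA gave 37 of the 100 cells (4.46% of its 829 kept cells, exact binomial 95% interval 3.16% to 6.10%) and SplitB gave 63 (5.77% of 1091, 4.47% to 7.33%). Below, "the 100 cells" are set against the other 792 kept cells of SplitA and 1028 of SplitB.

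CDKN1A encodes p21, an inhibitor of cyclin-dependent kinases that holds cells before S phase and is a classical target of the transcription factor p53. In unstressed cells p53 is kept low by MDM2, a ubiquitin ligase whose own gene is a p53 target, and damage to DNA or other stress releases it. Its targets act in arrest, repair, metabolism and cell death, and some limit p53 in turn.

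p53 binds a pair of adjacent repeats. The window from 3000 bases before to 1000 bases after the start of the MANE Select transcript (GRCh38, GENCODE 44) was searched for such a pair without spacer, with the letters NNNCNNGNNNNNNCNNGNNN required and at most 2 mismatches to the p53 consensus elsewhere; the pattern is its own reverse complement, so both strands were covered. The sites below are those found at CDKN1A, which defines the cells, at MDM2, the named marker, and at the 5 p53 targets that rose in these cells and hold a match. They run 5′ to 3′ on the strand of the gene, and the capitals mark the core of each repeat.
CDKN1A: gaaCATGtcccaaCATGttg
MDM2: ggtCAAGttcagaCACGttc
BTG2: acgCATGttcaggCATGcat
BAX: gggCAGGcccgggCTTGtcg
AEN: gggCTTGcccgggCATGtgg
DDB2: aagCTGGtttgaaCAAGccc
GDF15: catCTTGcccagaCTTGtct
The CDKN1A site is at chr6:36676449-36676468, upstream of the gene, with its first base at -2265 from the start. The BTG2 site (chr1:203303642-203303661, -1877), the GDF15 site (chr19:18385308-18385327, -850) and the AEN site (chr15:88621306-88621325, -34) are also upstream. The MDM2 site (chr12:68808923-68808942) and the BAX site (chr19:48955213-48955232) are in intron 1, and the DDB2 site (chr11:47214969-47214988) spans the start of exon 1. A match was found for 15 of 38 genes (39.5%), the 37 p53 targets listed for this work and CDKN1A, and for 574 of 19061 protein-coding genes (3.01%). The limit of 2 mismatches was set after the known CDKN1A site had been missed with fewer. With at most 1 mismatch 4 of the 38 (10.5%) and 78 of all genes (0.409%) matched, and the letters CATGNNNNNNCATG alone were found in 7 of 38 (18.4%) and 2744 of 19061 (14.4%). Of the 11 listed targets that rose, 5 hold a match, while RPS27L, GADD45A, PHLDA3, BBC3, TIGAR and FDXR rose without one. Matches were also found at listed targets that were not called, among them PLK2, the only one with 0 mismatches. Whether a match goes with a rise was not tested. A match describes the sequence and not binding, and many listed genes are known as p53 targets partly through such sites.

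The highest cell, of SplitB, held 10 CDKN1A UMIs among 6412 (15.6 per 10,000), the next a SplitA cell with 13.6, and the 50th cell had 2.48. At the threshold, the cells of rank 99 and 100 had 1.782 and 1.778 per 10,000 and the next 2 cells, left out, had 1.772 and 1.764, in each case from a single UMI in 5611 to 5670. The boundary therefore falls between cells that differ by depth alone. Of the 100 cells, 45 held 1 CDKN1A UMI, 26 held 2 and 29 held 3 or more, with 8 cells at 7 or more. They carried 238 of the 367 CDKN1A UMIs of all kept cells (64.9%). Of the other 1820 cells, 1701 had no CDKN1A UMI, 112 had 1 and 7 had more.

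**Figure D1:**
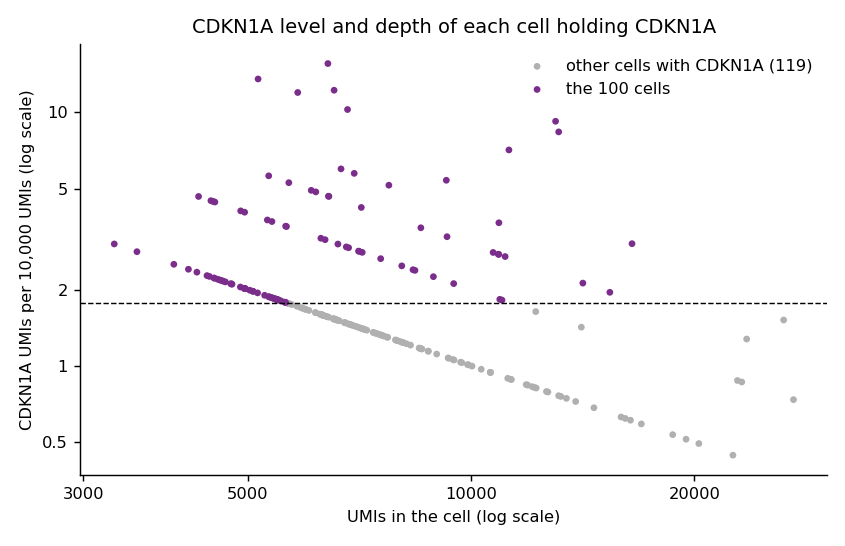
Each point is 1 of the 219 kept cells with a CDKN1A UMI, with its total UMIs on the x axis and its CDKN1A UMIs per 10,000 on the y axis, both on log scales. The dashed line is the threshold below the last of the 100 cells, and the bands of points are cells of 1, 2, 3 and more CDKN1A UMIs, of which the lowest band crosses the threshold between 5623 and 5644 UMIs.

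Since the level is a share, cells with 1 CDKN1A UMI could enter only when they were shallow. The median depth was 5447 UMIs in the 37 cells of SplitA against 6404 in the other cells of that flask, and 6089 against 6616.5 in SplitB. By count, the cells with 1 CDKN1A UMI had a median of 4962 UMIs without CDKN1A, those with 2 had 6700 and those with 3 or more 7744. The median mitochondrial share was 8.18% against 8.50% in SplitA and 8.44% against 8.60% in SplitB. All cells of 1 flask share a culture and a library, and only the 2 flasks were treated as replicates. The flasks come from the same split of 1 culture, so p-values say nothing about spread beyond these flasks. Doublets within a flask carry 1 hashtag and were not removed.

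The UMIs of each gene, without CDKN1A, were summed over the 100 cells and over the other cells of each flask. The sums of the 100 cells held 241381 UMIs in SplitA and 417807 in SplitB, against 5399026 and 7306103 in the other cells, so a gene at 10 CPM (UMIs per 1000000 UMIs) is a handful of UMIs in the 100 cells. Intervals given with CPM are exact Poisson and those with ratios exact conditional 95% intervals, and both cover counting error only. With edgeR's quasi-likelihood test, the flask as a block and Benjamini-Hochberg adjustment, 46 of 10859 genes tested were higher in the 100 cells at an adjusted p under 0.05 (0.424% of all tested) and 39 were lower (0.359%). The median log2 fold change of all genes tested was -0.03. With 1 residual degree of freedom edgeR gave all genes the same spread, a coefficient of variation of 0.038, so that p-values are too small for genes that differ strongly from cell to cell. DESeq2, with a spread for each gene, called 12 genes higher, all of them among the 46, and 1 lower. Adjusted p-values below are those of edgeR's quasi-likelihood test after Benjamini-Hochberg adjustment over all genes tested, unless DESeq2 is named.

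p53 targets other than CDKN1A stood higher in the 100 cells in both flasks. Of the 37 in the list 36 had a UMI and 30 could be tested, and 11 of them (GDF15, TIGAR, PHLDA3, GADD45A, DDB2, AEN, BBC3, FDXR, BTG2, RPS27L and BAX) rose while 0 fell, against 0.424% and 0.359% of all genes. The median log2 fold change was 1.25 over the 30, and 29 of them were above 0, as were 47.4% of all genes tested. In 25 of the 30 the CPM was higher in the 100 cells of both flasks, as it was for 27.6% of all genes tested. In the other cells GDF15, PLK3 and SESN2 were under the level of the low-count filter in both flasks and TIGAR and SESN1 in 1 flask, so that these passed it only with the counts of the 100 cells. The list was therefore also read without the filter, where the median was 1.18 over 36 genes and -0.25 over 17796 genes. DESeq2 called 6 of the 11, among its 12 genes, and gave no adjusted p for TIGAR, FDXR and BTG2. The list was chosen with earlier results of these data known and holds textbook targets of p53.

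The summed UMIs of the 37 genes were 1881 CPM in the 37 cells of SplitA (1712 to 2062) against 762 in the other cells (739 to 785), a ratio of 2.47 (2.24 to 2.72). In SplitB they were 1984 CPM (1851 to 2124) against 745 (725 to 765), a ratio of 2.66 (2.47 to 2.87). RPS27L is the most abundant of these genes in the sums.

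**Figure D2:**
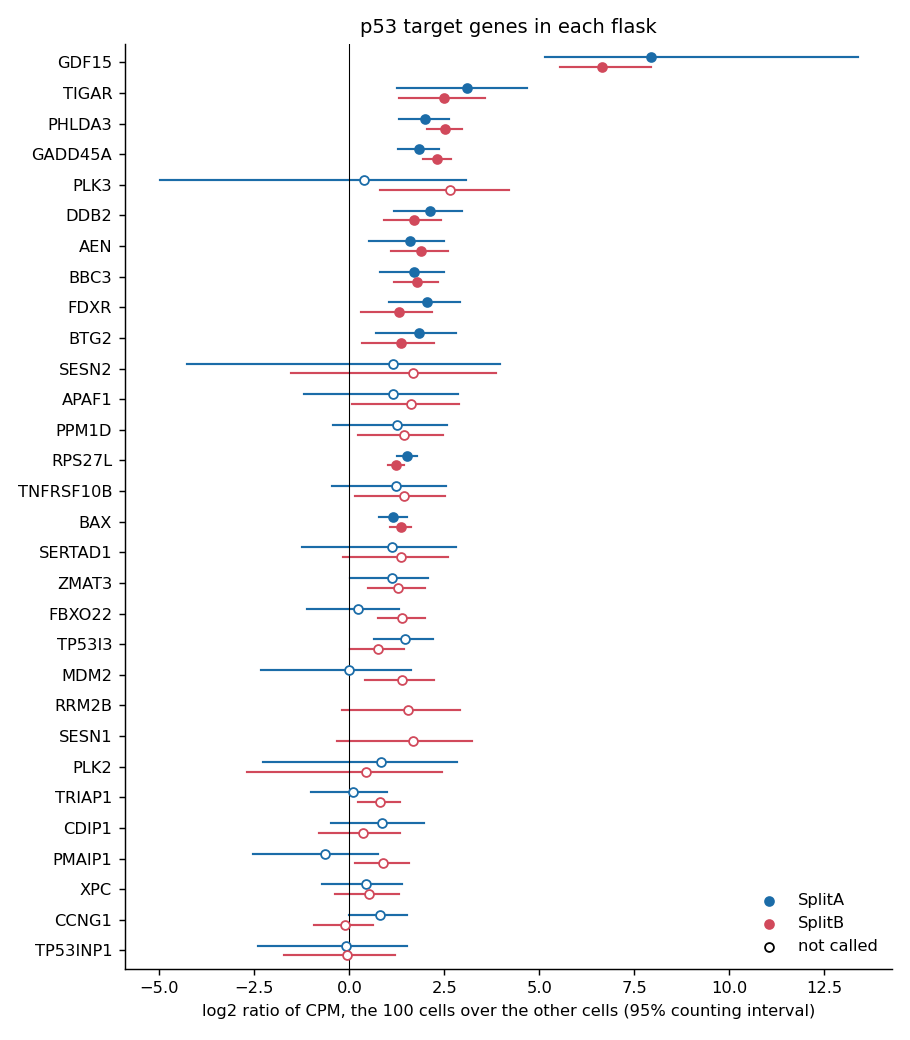
The x axis is the log2 ratio of CPM between the 100 cells and the other cells of SplitA (blue) or SplitB (red) for the 30 p53 targets tested, with exact 95% counting intervals and no point where the 100 cells of a flask had 0 UMIs (RRM2B and SESN1 in SplitA). Filled points are the 11 genes called higher over both flasks, whose points lie to the right of 0 in both flasks.

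In the group listed here as feedback, RPS27L, a ribosomal protein paralog that affects MDM2 and p53 turnover, rose. The groups of targets were set for this work, are loose, and the counts by group depend on that choice. It stood at 576 CPM (139 UMIs) in the 37 cells of SplitA against 202 in the other cells, and at 479 CPM (200 UMIs) in the 63 cells of SplitB against 204. The fitted log2 fold change was 1.30 (SE 0.11, adjusted p 3.37e-30, and 2.04e-11 with DESeq2). Reads that match its paralog RPS27 as well may have been lost or assigned to either, which was not tested. After thinning to 2000 UMIs per cell, 50% of the 100 cells and 31.7% of the others had an RPS27L UMI. No cell type that lacks these genes is in the library, so the part of free RNA in such shares was not tested.

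MDM2, the second marker given for these cells, did not pass the test. In SplitA it stood at 12.4 CPM in both the 100 cells (3 UMIs, interval 2.56 to 36.3) and the others (9.62 to 15.8), and in SplitB at 31.1 CPM (13 UMIs, 16.6 to 53.2) against 11.9 (9.54 to 14.7). The log2 fold change was 0.94 (SE 0.45, adjusted p 0.492). The difference thus appears in the counts of SplitB and not in those of SplitA, where the interval of the ratio ran from 0.201 to 3.06. The label was therefore kept to CDKN1A alone. PPM1D, the p53 phosphatase (log2 fold change 1.31, adjusted p 0.287), TRIAP1 (0.53, 0.523) and CCNG1 (0.25, 0.88) did not pass either, and SPATA18 had 2 UMIs in the 100 cells and was not tested.

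Of 8 targets of the arrest group, 3 rose, beside 0.424% of all genes. GADD45A, a stress sensor that binds PCNA and slows the G2/M transition, stood at 145 CPM (35 UMIs) against 40.7 in SplitA and at 184 CPM (77 UMIs) against 37.1 in SplitB, a log2 fold change of 2.08 (SE 0.19, adjusted p 2.93e-24). It had a UMI in 44 of the 100 cells and in 20.8% of the others, and after thinning in 17% and 7.86%. PHLDA3, a repressor of AKT signalling, stood at 99.4 CPM (24 UMIs) against 25 and at 129 CPM (54 UMIs) against 22.6, with a log2 fold change of 2.27 (SE 0.23, adjusted p 1.02e-18). BTG2, an antiproliferative cofactor of mRNA deadenylation, stood at 41.4 CPM (10 UMIs) against 11.7 and at 28.7 CPM (12 UMIs) against 11.2, with an adjusted p of 0.037. In both flasks each of the 3 was higher in the 100 cells with intervals of the ratio above 1. ZMAT3, an RNA-binding protein, missed the threshold at a log2 fold change of 1.18 (adjusted p 0.0716), and PLK2, PLK3, SERTAD1 and TP53INP1 had 4 to 9 UMIs each in the 100 cells and were not called.

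Of 10 targets with roles in cell death, 7 could be tested and 3 rose, beside 0.424% of all genes. BAX, which permeabilizes the outer mitochondrial membrane, stood at 273 CPM (66 UMIs) against 123 in SplitA and at 294 CPM (123 UMIs) against 116 in SplitB, a log2 fold change of 1.22 (SE 0.14, adjusted p 8.67e-16, and 2.56e-05 with DESeq2). BBC3, which encodes the BH3-only protein PUMA, stood at 62.1 CPM (15 UMIs) against 19.1 and at 76.6 CPM (32 UMIs) against 22.4 (log2 fold change 1.70, adjusted p 1.86e-06). AEN, a nuclease of apoptosis, stood at 45.6 CPM (11 UMIs) against 15.2 and at 47.9 CPM (20 UMIs) against 13 (log2 fold change 1.71, adjusted p 0.000614, and 0.358 with DESeq2). All 3 were higher in both flasks. PMAIP1, which encodes NOXA, went in opposite directions, with 16.6 CPM against 25.7 in SplitA and 47.9 against 25.7 in SplitB, and did not pass (adjusted p 0.791). FAS, a death receptor, had 1 UMI in the 100 cells and PERP had 0 UMIs in all kept cells.

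In the repair group 1 of 4 genes tested rose, beside 0.424% of all genes, and 1 call says little about a group of 4. DDB2, which recognizes UV lesions in nucleotide excision repair, stood at 58.0 CPM (14 UMIs) against 13.3 in SplitA and at 45.5 CPM (19 UMIs) against 14.1 in SplitB (log2 fold change 1.81, SE 0.35, adjusted p 0.000107, and 0.119 with DESeq2). FBXO22 (log2 fold change 1.00, adjusted p 0.0923), XPC (0.44, 0.798) and RRM2B (0.77, 0.842) did not pass. In the metabolism group 2 of 5 rose. TIGAR, SESN1 and SESN2 passed the low-count filter only with the counts of the cells with most CDKN1A. This count therefore cannot be set fairly against the share of all genes. Without that filter TIGAR and FDXR, the genes that rose, were still called. TIGAR, a fructose bisphosphatase that diverts sugar from glycolysis, stood at 20.7 CPM (5 UMIs) against 2.41 and at 23.9 CPM (10 UMIs) against 4.24, a log2 fold change of 2.62 (SE 0.53, adjusted p 0.000336, with no adjusted p from DESeq2). FDXR, ferredoxin reductase of mitochondria, stood at 53.9 CPM (13 UMIs) against 13.2 and at 28.7 CPM (12 UMIs) against 11.6 (log2 fold change 1.59, adjusted p 0.0101). TP53I3, a quinone oxidoreductase, missed the threshold (log2 fold change 1.00, adjusted p 0.067).

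GDF15, a secreted stress cytokine of the TGF-beta family, had the largest fold of the genes called. It had 11 UMIs in the 37 cells of SplitA (45.6 CPM, 22.7 to 81.5) against 1 UMI in the 792 others, a ratio of 246 with a counting interval from 35.8 to 1.06e+04. In SplitB it had 46 UMIs (110 CPM, 80.6 to 147) against 8 UMIs in 1028 others (1.09 CPM), a ratio of 100.55 (47.0 to 247). The fitted log2 fold change was 6.74 (SE 0.42, adjusted p 1.8e-52, and 1.21e-18 with DESeq2). These UMIs came from 13 of the 100 cells, 1 of which held 25 of the 57, while 6 of the 1820 others had any. After thinning to 2000 UMIs, 7% of the 100 cells and 0.165% of the others had a GDF15 UMI. KITLG, another secreted target, had 1 UMI in the 100 cells.

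The 100 cells were not alike in these genes. Over both flasks the 37 targets gave 7.38 UMIs per 10,000 (7.23 to 7.54) in other cells without CDKN1A, 8.91 (8.37 to 9.47) in other cells with CDKN1A, 9.66 (8.41 to 11) in those of the 100 with 1 CDKN1A UMI, 18.3 (16.4 to 20.4) with 2 and 28.6 (26.6 to 30.8) with 3 or more. The cells with 1 CDKN1A UMI thus lay close to the other cells that hold CDKN1A, with overlapping intervals. Those with 2 and with 3 or more lay above them in these pooled counts. The intervals cover counting error only, since cells of 1 flask are not replicates. Without RPS27L the same steps were 5.38, 6.63, 7.41, 13.2 and 21.0 UMIs per 10,000. By flask and without RPS27L, cells of SplitA with 2 CDKN1A UMIs gave 9.65 (7.23 to 12.6) against 7.39 (5.86 to 9.20) with 1. In SplitB they gave 14.8 (12.7 to 17.2) against 7.43 (5.94 to 9.19). The intervals overlap in SplitA, so the step from 1 to 2 UMIs rests mostly on SplitB. In SplitA the 8 cells with 3 or more CDKN1A UMIs gave 33.5 (29.6 to 37.8) and in SplitB the 21 such cells gave 26.5 (24.2 to 29.0), against 7.47 and 7.32 in other cells without CDKN1A. GDF15 had 0 UMIs in the 45 cells with 1 CDKN1A UMI, 12 UMIs in 5 of the 26 cells with 2 and 45 UMIs in 8 of the 29 cells with 3 or more.

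Cell by cell, the 100 cells ran from 2.05 to 85.3 UMIs of p53 targets per 10,000 with a median of 12.1, and the others from 0 to 31.6 with a median of 7.03. The ranges overlap, and 41 of the 100 cells lay above the value that 95% of the others did not exceed (15.2 per 10,000). Of the 29 cells with 3 or more CDKN1A UMIs 21 did so, of the 26 with 2 UMIs 12, and of the 45 with 1 UMI 8. Against the like value of each flask, 10 of 37 cells in SplitA (27.0%) and 31 of 63 in SplitB (49.2%) lay above it. With 2 CDKN1A UMIs these were 2 of 8 and 10 of 18, and with 3 or more 5 of 8 and 16 of 21. This contrast between flasks was not tested. Without the 10 cells of highest CDKN1A, a setting chosen after seeing the data, 9 of the 11 targets still passed and the list median was 1.01. FDXR (log2 fold change 1.21, adjusted p 0.469) and BTG2 (1.47, 0.203) did not pass there, nor against other cells nearest in UMIs (1.36 and 1.45, adjusted p 0.0729 for both). For the next cells down, the next 100 by rank against all lower ranks, 0 of 27 targets tested passed with edgeR and the median was 0.19, beside -0.03 for all genes in that comparison. In it 10 genes were higher and 19 lower among all genes tested.

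**Figure D3:**
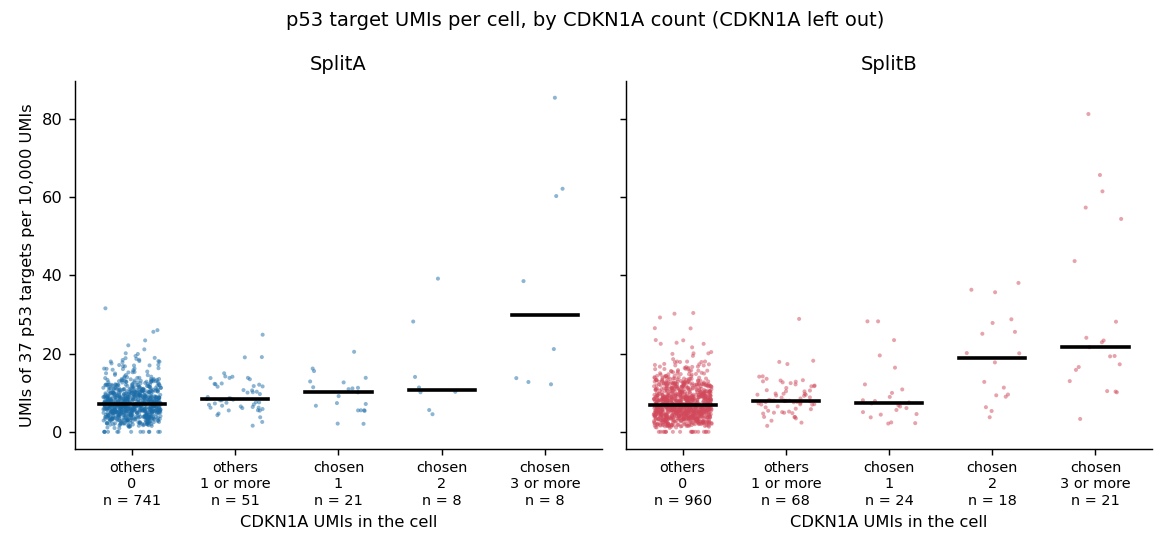
UMIs of the 37 p53 targets per 10,000 UMIs (y axis) in each kept cell, grouped by CDKN1A UMIs and by whether the cell is among the 100 (chosen) or not (others), for each flask, with bars at the medians. The cells with 3 or more CDKN1A UMIs reach 85.3 in SplitA, while no other cell without CDKN1A is above 31.6.

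Of 52 G2/M genes tested, 4 fell (CENPF, UBE2C, CKS2 and HMGB2) and 0 rose, beside 0.359% and 0.424% of all genes, with a median log2 fold change of -0.43, and 34 were lower in both flasks, as were 27.2% of all genes tested. Of 41 S phase genes tested 0 passed in either direction with edgeR and 0 with DESeq2, with a median of -0.08, and with 0.424% and 0.359% of all genes called a count of 0 among 41 says nothing particular about them. PCNA, the replication clamp and itself a known p53 target, stood at 82.9 against 72.0 CPM in SplitA and at 86.2 against 68.7 in SplitB (adjusted p 0.838). In sum over the list, the G2/M genes stood at 2598 CPM (2398 to 2809) against 3901 in SplitA and at 3085 (2919 to 3258) against 3728 in SplitB, so the difference was larger in SplitA, a contrast that was not tested. DESeq2 called none of the 4. Against the 500 other cells nearest to the 100 in UMIs, CENPF alone of the G2/M genes passed with edgeR (log2 fold change -0.77, adjusted p 0.0152). UBE2C (-0.71, 0.0669), CKS2 (-0.50, 0.221) and HMGB2 (-0.31, 0.0703) did not, and the list median was -0.34.

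CENPF, a protein of the kinetochore, stood at 74.6 CPM (18 UMIs) against 228 in SplitA and at 136 CPM (57 UMIs) against 200 in SplitB (log2 fold change -0.95, SE 0.16, adjusted p 3.29e-06). UBE2C, the E2 enzyme of the anaphase-promoting complex, stood at 58.0 CPM against 191 and at 129 against 169 (log2 fold change -0.85, adjusted p 0.000349). CKS2, a subunit that binds cyclin-dependent kinases (-0.65, adjusted p 0.00894), and HMGB2, a chromatin protein (-0.41, adjusted p 0.000636), were lower in both flasks too. Outside the list, PLK1, a mitotic kinase, had 3 UMIs in the 100 cells (1 and 2) against 151 and 179 in the others, ratios of 0.148 (0.00373 to 0.838) and 0.195 (0.0235 to 0.716), and fell with an adjusted p of 0.0147, but did not pass against other cells nearest in UMIs (log2 fold change -2.27, adjusted p 0.083) and had no adjusted p from DESeq2. ANAPC7, a subunit of the anaphase-promoting complex, had 1 UMI in each flask against 104 and 161 (adjusted p 0.0306). ANAPC7 did not pass without the 10 cells of highest CDKN1A (log2 fold change -2.64, adjusted p 0.182). With 200 members its log2 fold change was 0.009 (adjusted p 0.997), and DESeq2 gave it no adjusted p. MKI67, the proliferation marker, did not pass (-0.57, adjusted p 0.184).

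Phase calls from these lists gave 48.6% of the 37 SplitA cells in G1 (exact binomial interval 31.9% to 65.6%) against 42.7% of the others, and 47.6% of the 63 SplitB cells (34.9% to 60.6%) against 43.1%. For G2/M the shares were 16.2% (6.19% to 32%) against 27.9% in SplitA and 22.2% (12.7% to 34.5%) against 27.8% in SplitB. These intervals cover counting error only, since cells of 1 flask are not replicates, and 20% of the 100 cells were called G2/M. Among other cells nearest in UMIs the shares lay closer to those of the 100, with G1 at 49.2% in SplitA and 45.7% in SplitB and G2/M at 21.6% and 23.2%. With 2 flasks the difference in phase was not tested. After thinning to 2000 UMIs, G1 held 56.8% against 42.4% in SplitA and 46.0% against 43.7% in SplitB. G2/M then held 18.9% against 29.8% in SplitA and 22.2% against 29.3% in SplitB. With G1 cells alone on both sides, 6 of the 11 p53 targets passed and 0 genes fell with edgeR, with 472 genes at an unadjusted p under 0.05. In that fit 22 of the G2/M genes could be tested, with a median of -0.43, CENPF at -1.70 (adjusted p 0.677) and HMGB2 at 0.18 (0.94), among cells chosen by phase calls that use these same genes.

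**Figure D4:**
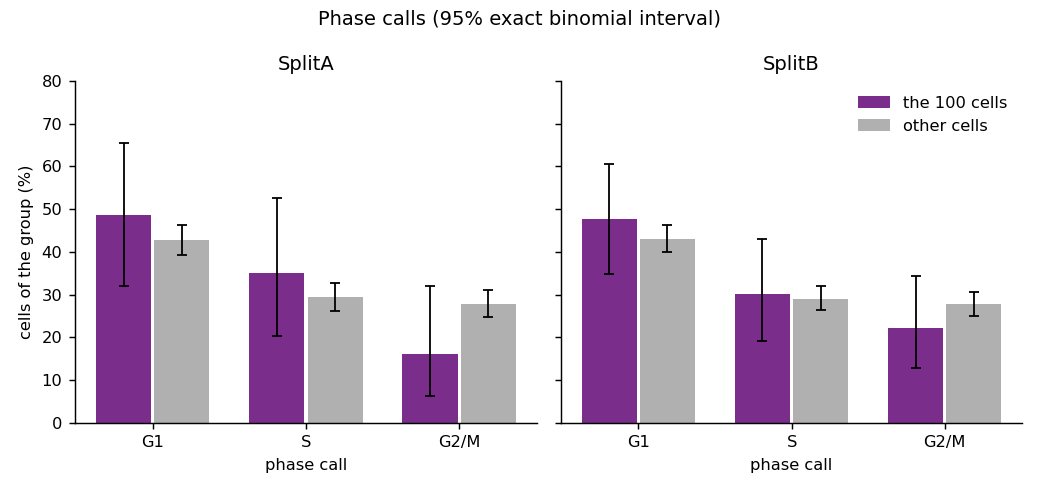
Share of cells called G1, S and G2/M (y axis, percent) among the 100 cells (purple) and the other cells (grey) of each flask, with exact 95% binomial intervals. G2/M stands at 16.2% against 27.9% and 22.2% against 27.8%, against 21.6% and 23.2% in other cells of like depth (not drawn), and the intervals cover counting error only.

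Of 13 genes tested among cyclin D partners and other inhibitors of the cycle, 1 fell and 0 rose, beside 0.359% and 0.424% of all genes, and 1 call among 13 says little about the list. CDK6, a kinase of the G1 phase, stood at 133 against 207 CPM in SplitA and at 151 against 215 in SplitB (log2 fold change -0.61, SE 0.15, adjusted p 0.0113, and 0.9997 with DESeq2). CCND1, its cyclin partner, stood at 721 against 703 CPM and at 644 against 643, with a log2 fold change of -0.04 (SE 0.09). The other inhibitors CDKN1B (-0.67, adjusted p 0.682), CDKN1C (0.13, 0.931) and CDKN2A (-0.80, 0.715) did not pass.

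Of 29 genes of the neuronal list (cytoskeleton, membrane, RNA-binding and signalling genes) 0 passed in either direction with edgeR and 0 with DESeq2, where 0.424% and 0.359% of all genes were called, so that a count of 0 among 29 says nothing particular about these genes. The median was -0.08 in the fit and 0.02 and 0.01 in the ratios of SplitA and SplitB. STMN2, a growth cone protein, stood at 737 CPM (633 to 854) against 710 in SplitA and at 615 (542 to 695) against 682 in SplitB. STMN4, a related protein, came nearest to the threshold, at 91.1 against 56.5 CPM and at 95.7 against 53.5 (log2 fold change 0.73, adjusted p 0.0721). DCX, a microtubule protein of migrating neurons, had 6 UMIs in the 100 cells (log2 fold change -1.07, adjusted p 0.599), so that a change of this size was not detectable at this depth.

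Noradrenergic factors were expressed in the 100 cells, while markers of the mesenchymal type were mixed, with several at 0 and others abundant. PHOX2A, a master factor of noradrenergic neurons, stood at 704 against 679 CPM in SplitA and at 584 against 668 in SplitB. HAND2 stood at 315 against 319 and at 349 against 319, and 0 of the 8 factors of the noradrenergic list passed. DBH, which makes noradrenaline, stood at 431 against 322 CPM in SplitA and at 261 against 312 in SplitB, and TH, the first enzyme of the pathway, had 1 UMI in the 100 cells and 17 in the others. Of the markers of the mesenchymal type of neuroblastoma, COL1A2 and PRRX1 had 0 UMIs in all kept cells and FN1, COL1A1 and YAP1 had 0 in the 100 cells, while VIM had 113 UMIs in them (log2 fold change 0.39, adjusted p 0.338). In sum the 16 mesenchymal markers stood at 2925 CPM (2713 to 3149) against 2312 in SplitA and at 3090 (2924 to 3263) against 2428 in SplitB, most of it LGALS1.

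Among the granule genes of the same noradrenergic list 3 of 10 rose, beside 0.424% of all genes. CHGB, a protein of secretory granules, stood at 497 CPM (120 UMIs) against 172 in SplitA and at 273 CPM (114 UMIs) against 164 in SplitB (log2 fold change 1.06, adjusted p 3.66e-15, and 0.00026 with DESeq2), yet its UMIs lay in 39 of the 100 cells and 1 cell held 40 of the 234. VGF, a neuropeptide precursor, stood at 302 against 200 and at 483 against 257 CPM (0.75, adjusted p 3.17e-08), with 42 of 275 UMIs in 1 cell. GAL, which encodes galanin, stood at 1313 against 1225 and at 1824 against 1315 CPM (0.26, adjusted p 0.0153, and 0.9997 with DESeq2). GAL and VGF did not pass without the 10 cells of highest CDKN1A (log2 fold change 0.19 and 0.47, adjusted p 0.732 and 0.103), and GAL turned to -0.05 in G1 cells and to -0.07 with the 37 cells of SplitA alone. With these 37 cells VGF was at 0.27 and CHGB at 1.45. In G1 cells VGF (0.78, adjusted p 0.501) and CHGB (0.96, adjusted p 0.233) did not pass. In the next 100 cells by rank against all lower ranks, GAL (log2 fold change 0.63, adjusted p 2.71e-29) and CHGB (0.86, adjusted p 2.62e-09) were higher too. CHGA, the related granule protein, was higher in SplitA and lower in SplitB and did not pass (adjusted p 0.92).

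Of 9 mesenchymal-type genes tested, 3 rose (0.424% of all genes did), with a median log2 fold change of 0.39 over the 9. Of the 9, 1 passed the filter on low counts only through the 100 cells, and without the filter the median turned to -0.11 over 14 genes, beside -0.25 for all genes. LGALS1, galectin-1, stood at 1964 against 1598 CPM in SplitA and at 2066 against 1642 in SplitB (log2 fold change 0.26, adjusted p 0.00742). S100A6 (0.47, adjusted p 0.00319) and S100A11 (0.75, adjusted p 0.00109), calcium-binding proteins, were higher in both flasks. DESeq2 called none of them (adjusted p 0.427, 0.544 and 0.427), and none passed without the 10 cells of highest CDKN1A, where the log2 fold changes were 0.24, 0.39 and 0.56 (adjusted p 0.531, 0.276 and 0.276). For LGALS1 the direction turned with 50 members (-0.07) and with members of 3 or more CDKN1A UMIs (-0.17). In the next 100 cells by rank, S100A11 (log2 fold change 1.05, adjusted p 1.69e-10) and S100A6 (0.56, adjusted p 6.75e-06) were higher as well, and LGALS1 did not pass (adjusted p 0.733).

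Of 11 genes of the integrated stress response tested, 2 rose, beside 0.424% of all genes. DDIT3, which encodes the factor CHOP, stood at 41.4 CPM (10 UMIs) against 9.45 in SplitA and at 64.6 CPM (27 UMIs) against 11.1 in SplitB (log2 fold change 2.36, SE 0.35, adjusted p 1.72e-08, and 0.0077 with DESeq2). Its UMIs lay in 15 of the 100 cells, with 12 of 37 in 1 cell, and 6.48% of the others had any. The adjusted p of DDIT3 was 0.22 without the 10 cells of highest CDKN1A. DDIT4, an inhibitor of mTORC1, had 1 UMI in SplitA and 18 in SplitB, 8 of them in 1 cell, so its call (adjusted p 0.00345) rests on SplitB. ATF4, the central factor of this response (0.20, adjusted p 0.887), and its targets ASNS, PSAT1 and TRIB3 did not pass. Of 9 immediate early genes tested, 0 passed with edgeR and 0 with DESeq2, which at the share called of all genes says nothing particular about them.

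**Figure D5:**
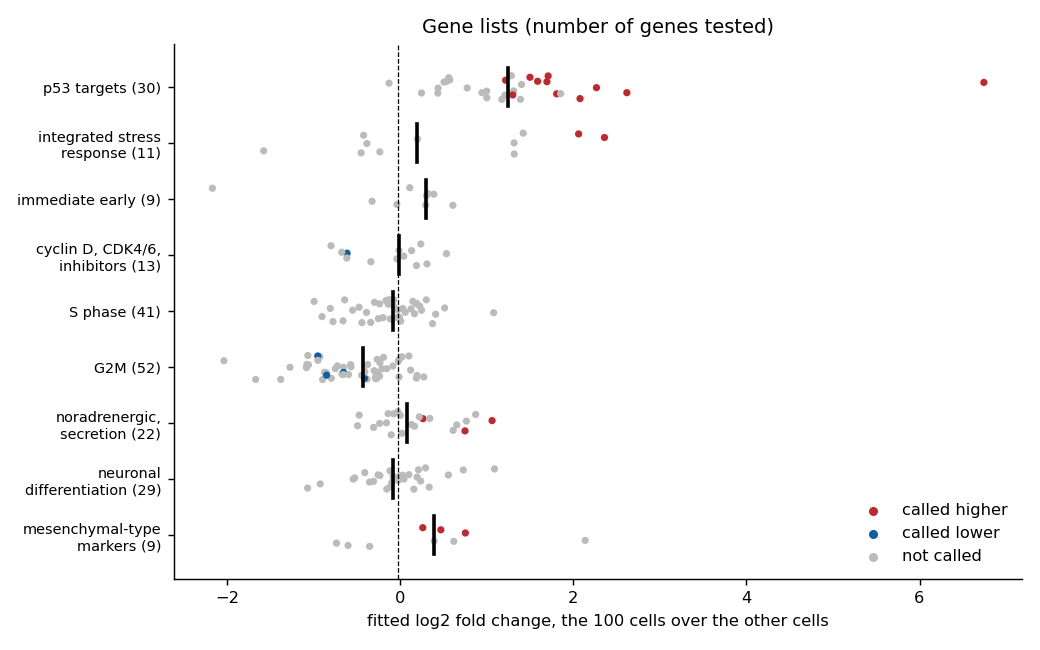
Fitted log2 fold change (x axis) of each gene tested in 9 lists, with red and blue points for genes called higher and lower, black bars at the list medians and a dashed line at the median of all genes tested (-0.03). The p53 targets have their median at 1.25 and the G2/M genes at -0.43, and the other bars lie between -0.08 and 0.39.

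By size, 7 of the 12 largest rises with the same direction in both flasks were those already named from the lists, namely GDF15, TIGAR, DDIT3, PHLDA3, GADD45A, DDB2 and AEN. The other 5 rested on 7 to 11 UMIs each in the 100 cells and stood at 0.926 to 2.74 CPM in the others. Like GDF15 and TIGAR, they passed the filter on low counts only through the 100 cells. These 5 and GDF15 had to differ to be tested, while TIGAR was under the level of the filter in the other cells of 1 flask only. Without the filter 31 of the 46 higher genes were called. Of the 5, LCN1 is a lipocalin of tears (11 UMIs, 9 of them in 1 cell) and ELOVL4 an elongase of very long fatty acids (7 UMIs). ACTA2 is smooth muscle actin (9 UMIs in 7 cells, log2 fold change 3.01, adjusted p 0.0033) and SPINK4 a protease inhibitor (8 UMIs). UNC5B-AS1 is an RNA antisense to UNC5B (9 UMIs), whose reads can be told from those of UNC5B only by strand.

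Besides CENPF, UBE2C, CKS2, PLK1 and ANAPC7, the 12 largest falls held DICER1, the nuclease that makes microRNAs, at 16.6 against 40.2 CPM in SplitA and 12 against 44.1 in SplitB (log2 fold change -1.69, adjusted p 0.0111). They also held RNF150 (-0.99), SOX11, a factor of neural progenitors (-0.80, adjusted p 0.0306), MEX3A, an RNA-binding protein (-0.80), KCNH2, the hERG potassium channel (-0.75), MRPL34 of the mitochondrial ribosome (-0.74) and MARCKS, a substrate of protein kinase C (-0.68, adjusted p 0.000251). All 12 were lower in the 100 cells of both flasks, which the naming rule required, and DESeq2 called none of them. Against other cells nearest in UMIs, RNF150 (adjusted p 0.127), SOX11 (0.242), KCNH2 (0.124) and MRPL34 (0.0614) did not pass. Without the 10 cells of highest CDKN1A, DICER1 (adjusted p 0.101), RNF150 (0.314), SOX11 (0.353), MEX3A (0.0791) and KCNH2 (0.26) did not.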

How the data were processed

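UMIs were counted by the authors with Cell Ranger 4.0.0 on GRCh38, with STAR 2.7 also named in the submitters' processing notes, and the deposited matrix holds raw counts of 33538 genes and 2 hashtags in 2879 cells, without normalization. The release of the gene annotation is not given in the sources used here. Kept cells had 1801 to 27205 UMIs.

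The members and gene lists were chosen with earlier results of these data known. Sums per flask and class, without CDKN1A, were tested with edgeR 4.0.16 (TMM, filterByExpr at its defaults, flask as a block, adjusted p under 0.05), with DESeq2 1.42.0 as an alternative, in R 4.3.3. DESeq2 gave no adjusted p for 7158 of the 10859 genes. Phases were called with Seurat 5.3.0 from its lists (42 of 43 S and 52 of 54 G2M genes found). Other values came from Python 3.11.15, numpy 2.4.6, pandas 2.3.3, scipy 1.17.1 and matplotlib 3.10.9. On simulated counts of this comparison (10831 genes) the fit called 26% of 100 genes changed 2-fold, 70% of 100 changed 4-fold and 3 of 10631 unchanged genes. The simulation gave every gene the same spread, as the fit assumes, and changed only genes with at least 100 UMIs. These shares therefore do not hold for genes of fewer UMIs or of uneven spread, and give no rate of false calls in the real data.

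Named genes are genes of the lists (those that passed, the most abundant and others with their values) and, among called genes, the 12 largest rises and falls with the same direction in both flasks. Alternatives changed the number of members, the comparison cells, the filters, the scaling, the block and the flasks.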

Additional observations from a re-analysis of the deposited data

Results flagged for a closer look

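CHGA, which encodes chromogranin A, differed between the flasks. Its log2 ratio of the 100 cells to the others was 0.42 in SplitA and -0.44 in SplitB, each with a counting interval that does not include 0, and the difference between flasks was not tested over replicates. Multiplets and cells of high mitochondrial share, which entered no comparison, also held CDKN1A. Multiplets had 0.183 CDKN1A UMIs per 10,000 (11 UMIs in 95 cells, exact Poisson interval 0.0914 to 0.328), and cells left out for a mitochondrial share of 15% or more had 0.0959 (14 UMIs in 807 cells, 0.0525 to 0.161, median depth 1618 UMIs), both above the limit that a count of 0 allows. Kept cells had 0.275, which lies within the interval of the multiplets and above that of the cells of high mitochondrial share. The 57 cells left out for under 1000 genes, with a mitochondrial share under 15%, had 0 CDKN1A UMIs among 82022.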

How the results depend on the processing

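All 11 p53 targets called kept a log2 fold change above 0 under all 15 alternatives with a fit of the 100 cells or a variant of them, and 6 of the 10 tested did among the next 100 cells by rank. Of the 11, 8 passed with 50 members, 8 with 200 and 8 with members of 3 or more CDKN1A UMIs. In these settings AEN did not pass (log2 fold change 1.66, 0.82 and 1.78, adjusted p 0.122, 0.189 and 0.207). Nor did TIGAR (2.83, 1.72 and 2.90, adjusted p 0.0688, 0.0548 and 0.225). The 46 higher and 39 lower genes became 55 and 50 without the replicate block by flask, in which the 11 targets all passed. Higher calls numbered 25 with 50 members, 21 with members of 3 or more CDKN1A UMIs, 8 in G1 cells alone, 12 with DESeq2, 17 without the 10 cells of highest CDKN1A (chosen after seeing the data) and 16 to 52 when members of 1 flask were left out, 16 being without SplitB (the lone sum of the 100 cells is then assumed to vary like the sums of the other cells). Lower calls numbered 110 without a filter, 15, 60, 0, 1 and 8 in the same order of the first 5 settings, 64 against cells with no CDKN1A UMI, 19 against cells nearest in UMIs, 22 with mitochondrial share from 9 genes and 70 to 81 with 1 flask left out. The p53 median was 1.62 with 50 members, 0.80 with 200, 1.59 with 3 or more UMIs, 1.57 in G1 and 1.01 without the 10 cells. The S phase median was 0.10 with 200 members, -0.28 with 3 or more UMIs, 0.0074 against cells nearest in UMIs, 0.028 without the 10 cells and -0.13 to 0.059 by flask, and the G2/M median was -0.72 to -0.37 by flask. The neuronal median was -0.064 with DESeq2's size factors, -0.15 without a filter, -0.18 with 50 members, 0.019 with 200, -0.15 with 3 or more UMIs, -0.12 against cells nearest in UMIs, -0.15 in G1, -0.13 with 9 mitochondrial genes, -0.067 with DESeq2, -0.10 without the 10 cells, -0.046 as a mean over cells and -0.073 to 0.019 by flask. The G1 share was 50% after thinning, 52% with 50 members, 40.5% with 200, 55.2% with 3 or more UMIs, 50% with 9 mitochondrial genes, 44.4% without the 10 cells and 47.6% to 48.6% by flask. Causes were not tested. Few UMIs per gene in the 100 cells limit what could be called among genes of low level.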

Other observations

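Among the genes called higher that no list above holds, several of high abundance rose by small amounts in both flasks (these were chosen after their values were seen). DLK1, a membrane ligand of chromaffin and neural progenitors, stood at 3418 against 2516 CPM in SplitA and at 3899 against 2552 in SplitB (log2 fold change 0.48, SE 0.06, adjusted p 1.61e-14 with edgeR and 2.33e-06 with DESeq2), but did not pass in members with 3 or more CDKN1A UMIs (0.25, adjusted p 0.64), with 50 members (0.39, 0.718) or in G1 cells (0.32, 0.677). GNAS, the stimulatory G protein subunit, stood at 2651 against 1922 and at 2463 against 1909 CPM (0.36, adjusted p 1.74e-06 with edgeR and 0.00699 with DESeq2). It did not pass with 3 or more CDKN1A UMIs (0.06, adjusted p 0.999), with 50 members (0.23, 0.891), in G1 cells (0.10, 0.944) or without the 10 cells of highest CDKN1A (0.36, 0.0791). TNFRSF12A, the receptor of TWEAK, rose more, from 29.6 to 78.7 CPM in SplitA and from 30.5 to 105 in SplitB (log2 fold change 1.60, adjusted p 3.96e-08 with edgeR and 0.0227 with DESeq2), with its 63 UMIs in 31 of the 100 cells. It was also higher in the next 100 cells by rank (1.05, adjusted p 0.0137 with edgeR), as were 6 of the 46 genes in all, and did not pass in G1 cells (1.01, adjusted p 0.677). LMNA, which encodes lamins A and C, stood at 162 against 85.4 and at 172 against 85.0 CPM (0.93, adjusted p 2.97e-05 with edgeR and 0.159 with DESeq2), and did not pass with 50 members (0.49, adjusted p 0.768), with 3 or more CDKN1A UMIs (0.74, 0.344) or in G1 cells (1.08, 0.176).

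RPL22L1, a paralog of the ribosomal protein RPL22, was the single gene that DESeq2 called lower, at 530 against 719 CPM in SplitA and 488 against 751 in SplitB (log2 fold change -0.60, adjusted p 9.9e-08 with edgeR and 0.0256 with DESeq2). The ribosomal protein genes as a whole, a list formed after seeing the data, stood at 362928 CPM in the 100 cells of SplitA against 373547 in the others, and at 365719 against 373178 in SplitB.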
